A study of Mus musculus with 24 samples.

Results

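The genes described here are 10 transcription factors that have been placed among the regulators of genome activation in the early mouse embryo. They are Nr5a2, Esrrb, Rarg, Gabpa, Nfya, Nfyb, Nfyc, Ctcf, Myc and Sp1. They were listed by name, without a cutoff on a measured value, but with earlier results of these data known. All 10 had a row among the 55291 gene rows of the read count tables, which also hold 1035 repeat types, and all 10 passed the filter on low counts in every comparison. Total RNA was sequenced from pools of 30 mouse embryos freed of the zona pellucida, with 2 libraries in each of 6 groups: control and MERVL-KD embryos with 2, 4 or 8 cells. MERVL is an endogenous retrovirus whose RNA is abundant in 2-cell embryos. In the MERVL-KD groups, 3 antisense oligonucleotides against it, mixed to 20 µM, were placed by microinjection into the zygote's male pronucleus, and control zygotes received a scrambled oligonucleotide in the same way. All zygotes came from superovulated females of 8 weeks mated with males of the same age. The animals are named as B6D2F1 (BDF1) in the growth protocol and as BDF2 in the strain label. The 2-cell embryos are labelled as 1.5 days post coitum and both later stages as 2.5 days post coitum. The 4-cell and 8-cell pools were thus sorted by stage on the same day of development. The study reports a developmental delay of MERVL-KD embryos from that day, with more of them than of controls left at earlier stages. At a given stage, MERVL-KD and control pools may therefore differ in how fast their embryos developed. The part of this selection in the results, steps from 4-cell to 8-cell included, was not tested. A pool mixes every blastomere of 30 embryos, and fewer cells that express a gene cannot be told apart from less of its RNA per cell.

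Transcription of the embryo's own genome begins in the zygote and becomes general at the 2-cell stage, while the RNAs stored in the oocyte are degraded. NR5A2 and ESRRB are orphan nuclear receptors that bind DNA as monomers at an extended half-site, and both are known as regulators of pluripotency genes. RARG is a receptor for retinoic acid that works as a dimer with an RXR. NF-Y is a trimer of NFYA, NFYB and NFYC that binds the CCAAT box of promoters, NFYA being the subunit that contacts the box. GABPA is the ETS-domain subunit of GABP, SP1 binds GC boxes, MYC pairs with MAX at E-boxes, and CTCF is the insulator protein at which cohesin loops stop.

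The promoters of 9 of the 10 genes were found in RefSeq (GRCm38.p6) as 16 windows of 300 bases, from 250 bases before to 50 bases after each annotated start, and there was no window for Myc. Letters bound by NF-Y, SP1, GABPA, MYC and monomer nuclear receptors were searched on both strands, and no letters for CTCF or RARG were. Shown are 4 windows, of which 1 is of Nr5a2, the gene that fell furthest in 2-cell embryos. The others, 1 each of Nfyc, Sp1 and Gabpa, are the windows with the most matches to the letters of the gene's own product or complex. A window of Nfya (chr17:48400531-48400830) also holds 1 CCAAT and is not printed. Each is written 5′ to 3′ on the gene's strand, with CCAAT (NF-Y), with GGGCGG (SP1) and with CCGGAAG (GABPA and other ETS factors), or their reverse complements, in capitals.
Nr5a2, chr1:136953581-136953880, minus strand: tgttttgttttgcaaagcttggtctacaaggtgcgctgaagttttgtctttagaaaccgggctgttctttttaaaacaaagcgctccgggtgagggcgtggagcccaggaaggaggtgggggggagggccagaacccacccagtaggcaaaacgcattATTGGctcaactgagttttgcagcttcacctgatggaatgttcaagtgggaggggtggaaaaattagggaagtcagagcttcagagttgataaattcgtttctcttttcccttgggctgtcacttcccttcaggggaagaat
Nfyc, chr4:120825160-120825459, minus strand: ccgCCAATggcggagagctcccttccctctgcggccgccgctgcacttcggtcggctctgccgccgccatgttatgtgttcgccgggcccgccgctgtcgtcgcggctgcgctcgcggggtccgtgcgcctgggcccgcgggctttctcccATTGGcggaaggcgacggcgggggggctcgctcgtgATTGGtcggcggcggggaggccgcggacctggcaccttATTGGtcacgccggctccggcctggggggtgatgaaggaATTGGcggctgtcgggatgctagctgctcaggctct
Sp1, chr15:102406066-102406365, plus strand: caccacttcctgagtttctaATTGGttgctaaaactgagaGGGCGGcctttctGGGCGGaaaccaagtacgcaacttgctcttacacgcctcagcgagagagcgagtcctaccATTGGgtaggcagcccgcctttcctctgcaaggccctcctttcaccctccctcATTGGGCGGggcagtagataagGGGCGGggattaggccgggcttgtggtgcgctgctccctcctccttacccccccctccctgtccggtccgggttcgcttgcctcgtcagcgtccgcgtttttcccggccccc
Gabpa, chr16:84834874-84835173, plus strand: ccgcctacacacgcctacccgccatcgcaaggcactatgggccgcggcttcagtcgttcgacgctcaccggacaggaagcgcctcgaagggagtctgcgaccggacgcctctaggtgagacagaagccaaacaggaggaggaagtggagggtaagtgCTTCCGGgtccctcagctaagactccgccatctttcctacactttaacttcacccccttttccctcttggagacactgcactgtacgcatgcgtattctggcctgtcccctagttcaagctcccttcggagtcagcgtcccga

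The Nfyc window holds 5 CCAAT boxes, and a further Nfyc window at chr4:120815664-120815963 holds 3. The Sp1 window holds 4 GGGCGG and 3 CCAAT, of which 1 pair overlaps. The Nr5a2 window shown holds 1 CCAAT, and the other Nr5a2 window (chr1:136960399-136960698) holds none of the letters searched. CCAAT occurred in 6 of the 16 windows, against 37.4% of all 32851 promoter windows, and GGGCGG in 7 of the 16, against 35.7%. The Nfya windows chr17:48409705-48410004 and chr17:48409771-48410070 overlap and hold the same GGGCGG, which is thus counted in both. By gene, CCAAT occurred in 5 and GGGCGG in 6 of the 9 with a window. The ETS letters CCGGAAG occurred in the Gabpa window alone, against 8.86% of all windows. Neither the E-box CACGTG (7.15% of all windows) nor the monomer half-site AAGGNCA (20.3%) was in any of the 16 windows. A match is a stretch of letters and not a bound site. None of the 10 genes holds a site for the anti-MERVL oligonucleotides with up to 2 mismatches, and the nearest such site lay 102.6 kb from Nr5a2 and 160.9 kb from Sp1.

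The 12 libraries held between 28167085 and 41482526 counts each, of which 15.8% to 25.2% were in repeat types. MERVL-int took 1.07% to 6.57% of the counts in control libraries and 0.0278% to 0.157% in MERVL-KD libraries, with no overlap at any stage. Levels are given as CPM, the count scaled to a common library size with TMM factors. Below, groups are said to be apart, or not to overlap, when both libraries of a group lie on the same side of both of another. How large a share of all features was apart was not counted. Such statements describe the libraries and are not a test. The summed level of 10 oocyte markers in 2-cell embryos was 1388 and 1318 CPM in control against 860.3 and 964.6 in MERVL-KD libraries, and that of 9 markers of the 2-cell stage was 1679 and 1694 against 917.7 and 1055. Of the 10 oocyte markers 4 passed as lower and 0 as higher in 2-cell embryos (median -0.28), and Bmp15 alone fell from 568.4 to 307.0 CPM. With library size alone as the scaling 1 was lower and 1 higher (median 0.007, against 0.31 over all features). Of the 9 markers of the 2-cell stage 6 passed as lower in 2-cell embryos (list median -0.74), and Sp110 had a control mean of 1116 CPM there. The same 9 summed to 1454 and 1551 against 758.5 and 823.4 CPM in 4-cell and to 1758 and 1861 against 1044 and 1223 CPM in 8-cell embryos, but most of these sums was 1 gene, Sp110, with control means of 1396 and 1723 CPM, and of the 9 markers 2 and 1 were lower and none higher, with list medians of 0.26 and -0.03. The part of these markers in the results was not tested. A list of 10 markers of the 8-cell stage summed to 531.1 and 499.5 CPM in control 8-cell libraries and to 435.4 and 449.1 in MERVL-KD ones, where Tdgf1 (109.6 to 64.6 CPM) was the only one of the 10 to pass and the list median was -0.03. In 4-cell embryos 3 of these 10 were higher after MERVL-KD and 0 lower (median 0.46), led by the keratin genes Krt8 (5.45-fold) and Krt18 (2.66-fold). The lists of 10 cumulus and granulosa markers, 8 sperm markers and 7 blood markers stayed between 0.341 and 9.70 CPM in sum, with the blood markers at 5.27 and 9.70 CPM in MERVL-KD against 1.05 and 2.09 in control 4-cell libraries, and 1, 2 and 2 of their genes were at 0 counts in both control libraries of the 2-cell stage. Members had 170 to 24397 counts in a library, the lowest in Myc and the highest in Nr5a2.

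**Figure D1:**
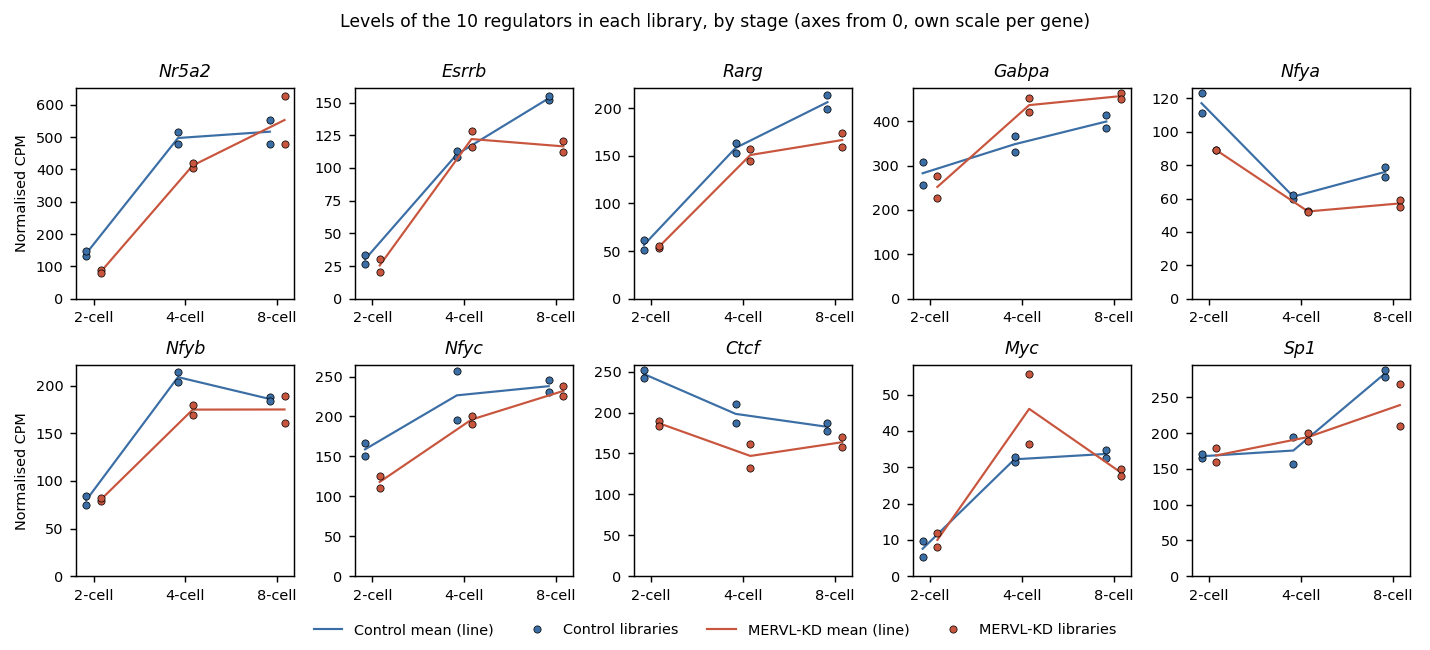
Normalised CPM (TMM scaling over 12 libraries) of each of the 10 genes by stage (x axis); points are the 2 libraries of a group and lines join group means, blue for control and red for MERVL-KD. Nr5a2 is lower in both MERVL-KD libraries than in both control libraries in 2-cell and 4-cell embryos and overlaps in 8-cell embryos, and Ctcf is lower in MERVL-KD at all 3 stages.

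MERVL-KD was followed by lower RNA of 4 of the 10 genes at the 2-cell stage, namely Nr5a2, Nfya, Nfyc and Ctcf, and none was higher. A gene is said to pass when its adjusted p is under 0.05 in the quasi-likelihood test of edgeR, with the Benjamini-Hochberg adjustment run across every gene row and repeat type tested. By the same rule, 7.23% of all features were lower and 6.74% higher at the 2-cell stage. In 4-cell embryos Ctcf was lower (5.75% of all features) and Gabpa higher (4.83%), and at the 8-cell stage Esrrb alone passed, lower (3.51%), with none of the 10 higher (1.62%). With library size alone as the scaling, Gabpa alone passed at the 8-cell stage, higher, and Esrrb did not. Averaged over the 3 stages, Nr5a2, Nfya, Nfyc and Ctcf were lower (10.1% of all features) and none was higher (6.53%), whereas with library size alone as the scaling these 4 lay at -0.11, -0.15, -0.03 and -0.14 and did not pass, and Gabpa (0.31) and Myc (0.43) were higher. No member differed by 2-fold or more between MERVL-KD and control at any stage. The median log2 fold change of the 10 genes was -0.12 in 2-cell, -0.13 in 4-cell and -0.19 in 8-cell embryos, against 0.02, 0.01 and 0.01 over all features tested. Without control replicate 2 Myc was higher at the 2-cell stage, at 0.95, and the count there was smaller and no longer of lower genes alone. At the 4-cell stage it was 1 without control replicate 1 or MERVL-KD replicate 1 and 0 without control replicate 2, and at the 8-cell stage it was 0 without either control replicate, 4 without MERVL-KD replicate 1 and 2 without MERVL-KD replicate 2.

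**Figure D2:**
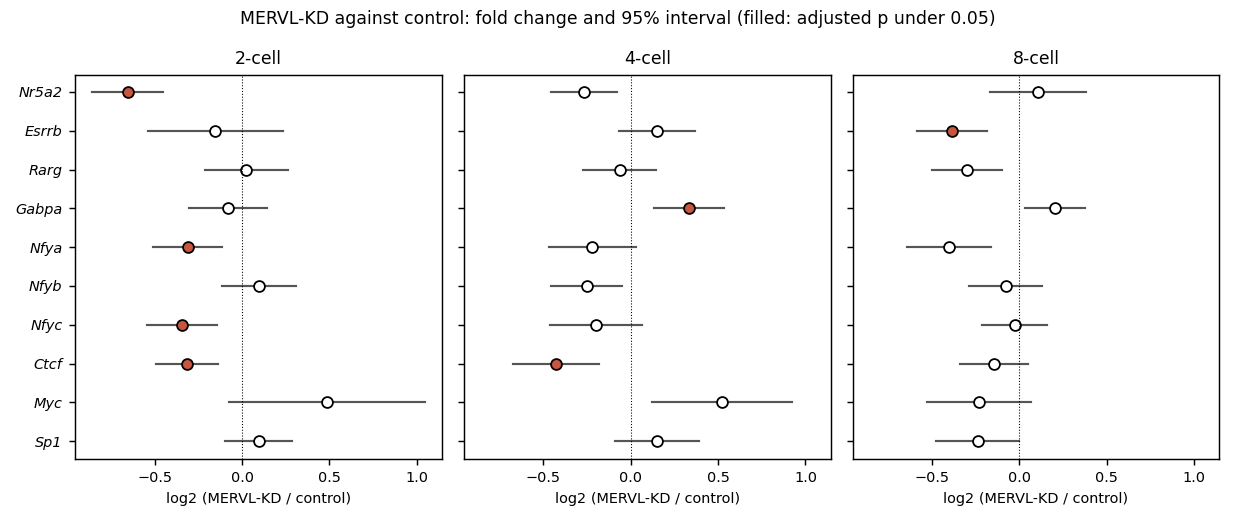
Log2 fold change of MERVL-KD against control (x axis) for each gene (rows) by stage, with 95% intervals from edgeR; filled points have an adjusted p under 0.05. The point of Nr5a2 moves from -0.65 at the 2-cell stage to -0.27 and 0.11 at the later stages, and the interval of Myc is the widest at each stage.

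In the step from 2-cell to 4-cell, the control fold change was larger in size than that of MERVL-KD at any stage for 7 of the 10 genes, the exceptions being Ctcf, Gabpa and Sp1. In control embryos, 9 of the 10 genes passed, 7 of them higher at the 4-cell stage (26.6% of all features) and 2 lower (28.1%). Of these, 5 were at least 2-fold higher (20.4% of all features): Myc, Esrrb, Nr5a2, Rarg and Nfyb. In MERVL-KD embryos the same 9 genes passed in the same directions, 7 higher (26.9%) and 2 lower (26.8%), again with 5 at least 2-fold higher (20.7%). Only Sp1 did not pass in either. From 4-cell to 8-cell, Rarg and Sp1 were higher in control embryos (3.12% of all features) and none was lower (3.02%), while in MERVL-KD embryos Nr5a2 alone was higher (2.22%) and none was lower (2.4%). With library size alone as the scaling, Sp1 was higher in the control step (0.49, adjusted p = 0.0102) and Rarg did not pass. On that scale Nfyb (-0.37, adjusted p = 0.0203) and Ctcf (-0.32, adjusted p = 0.0448) were lower. In the control step the count was 1 without any 1 of the 4 libraries of its own stages (control 4-cell or 8-cell), and in the MERVL-KD step it was 0 without MERVL-KD 4-cell replicate 1 or MERVL-KD 8-cell replicate 2, and 2 without MERVL-KD 8-cell replicate 1 or either control 2-cell library. The comparisons of a step in control and in MERVL-KD embryos share no library. The difference between them was tested directly: edgeR's quasi-likelihood test called 0 of the 10 genes for the 2-cell to 4-cell step (4.12% of all features, 2 members at an unadjusted p under 0.05, 1 member by DESeq2) and 0 for the 4-cell to 8-cell step (0.64% of all features, 4 members at an unadjusted p under 0.05, 0 by DESeq2). For the first of these the count was 1 without control 2-cell replicate 1 and 2 without MERVL-KD 2-cell replicate 1.

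**Figure D3:**
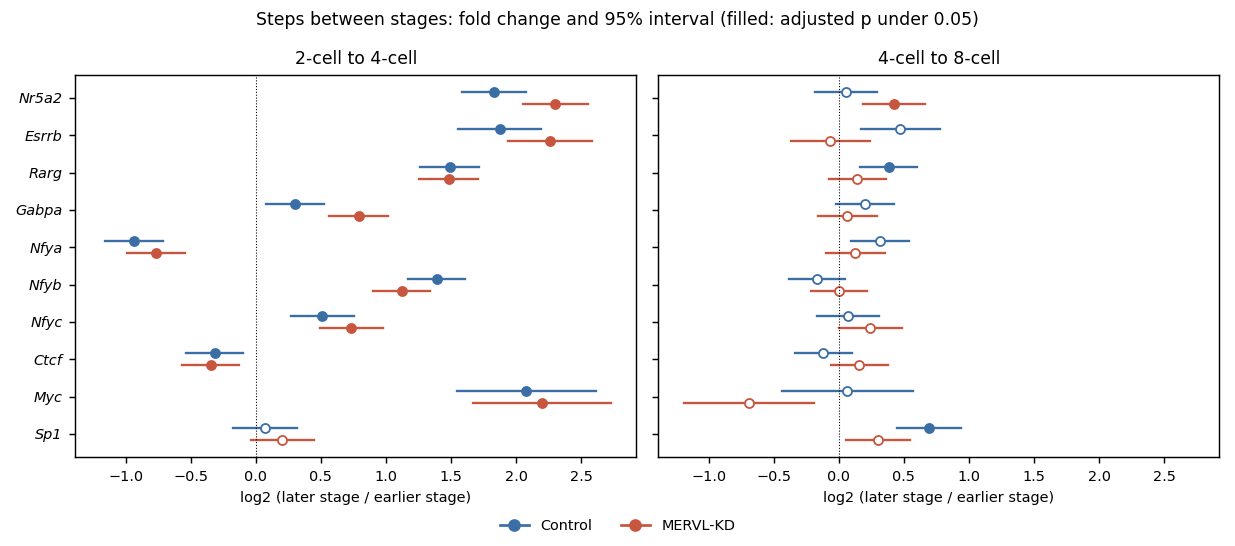
Log2 fold change of the later against the earlier stage (x axis) for each gene (rows), from 2-cell to 4-cell on the left and from 4-cell to 8-cell on the right, in control (blue) and MERVL-KD (red) embryos, with 95% intervals from edgeR; filled points have an adjusted p under 0.05. Nfya and Ctcf lie left of 0 in the first step in both, and Sp1 alone moves further in the second step than in the first.

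Nr5a2, at chr1:136842571-136960448 (GRCm38) on the minus strand, fell furthest among the 10 genes in 2-cell embryos. The control libraries held 132.8 and 146.4 CPM and the MERVL-KD libraries 88.1 and 79.2. Both MERVL-KD libraries were below both control libraries. The log2 fold change was -0.65 ± 0.10 (SE), 36.5% lower, with an adjusted p of 0.000247. CPM are scaled over all 12 libraries and the fold changes within a stage over its own 4, which for Nr5a2 at the 2-cell stage gives -0.65 in place of -0.74. The call held under each of 9 other settings, from -0.74 to -0.37, and without each library in turn.

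In 4-cell embryos Nr5a2 stood at 478.0 and 516.0 CPM in control and 403.8 and 420.1 in MERVL-KD libraries, still without overlap, but the fold change of -0.27 ± 0.09 did not pass (adjusted p = 0.075). At the 8-cell stage the MERVL-KD libraries, with 479.5 and 625.8 CPM, spanned the control libraries, with 554.1 and 479.0. The fold change was 0.11 ± 0.12 (adjusted p = 0.719). Leaving out MERVL-KD replicate 2 gave -0.10, and leaving out replicate 1 gave 0.28, each with 1 MERVL-KD library in the fit. The MERVL-KD effect was also compared between the 8-cell and the 2-cell stage, a comparison added after the values were seen. Of the 10 genes 3 had an unadjusted p under 0.05 in edgeR, but Nr5a2 alone passed (3.98% of all features). Its difference was 0.84 ± 0.16 on the log2 scale (adjusted p = 0.00444). The difference lay between 0.54 and 1.02 without each of the 12 libraries in turn.

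Control embryos raised Nr5a2 by 1.83 ± 0.12 on the log2 scale from 2-cell to 4-cell (adjusted p = 1.71e-11), 3.56-fold, and by 0.06 ± 0.11 from 4-cell to 8-cell (adjusted p = 0.856), a step that was -0.15 when scaled by library size alone. In MERVL-KD embryos the steps were 2.30 ± 0.12 (adjusted p = 5.91e-13) and 0.42 ± 0.11 (adjusted p = 0.0368). The second of these did not pass without MERVL-KD 4-cell replicate 1 (adjusted p = 0.154), 4-cell replicate 2 (0.0581) or 8-cell replicate 2 (0.366), nor with library size alone (0.28, adjusted p = 0.125) or in a fit of the 4 libraries alone (0.119). The steps of MERVL-KD and control embryos differed by 0.47 ± 0.16 (adjusted p = 0.116) and 0.37 ± 0.16 (adjusted p = 0.364), neither of which passed. In control libraries the 4-cell and 8-cell values overlapped.

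Of 16575 named genes, the 5 whose log2 CPM followed Nr5a2 most closely over the 12 libraries were Smarca4 (Pearson r = 0.995), Flvcr2 (0.995), Caprin1 (0.994), Ptpn2 (0.994) and Rbm19 (0.994). These correlations are a description, and the points share stages and libraries. Since the choice used all 12 libraries, the fold changes of these genes are given without a test. Smarca4 encodes BRG1, the ATPase of the BAF chromatin remodelling complexes. Its level was 244.1 and 279.3 CPM in control and 169.2 and 181.1 in MERVL-KD 2-cell libraries, without overlap. Its MERVL-KD fold changes were -0.50 ± 0.09 in 2-cell, -0.19 ± 0.08 in 4-cell and -0.08 ± 0.08 in 8-cell embryos, and with library size alone the first was -0.21 and the last 0.05. Caprin1, which encodes an RNA-binding protein of stress granules, was at -0.55 ± 0.09 in 2-cell and 0.03 ± 0.07 in 8-cell embryos. Flvcr2, a membrane transporter, was at -1.22 ± 0.19 in 2-cell, -0.45 ± 0.10 in 4-cell and -0.16 ± 0.10 in 8-cell embryos. Among the other 9 genes of the set, r with Nr5a2 was highest for Esrrb (0.969), Rarg (0.964) and Nfyb (0.96), and below 0 for Nfya (-0.755) and Ctcf (-0.462).

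**Figure D4:**
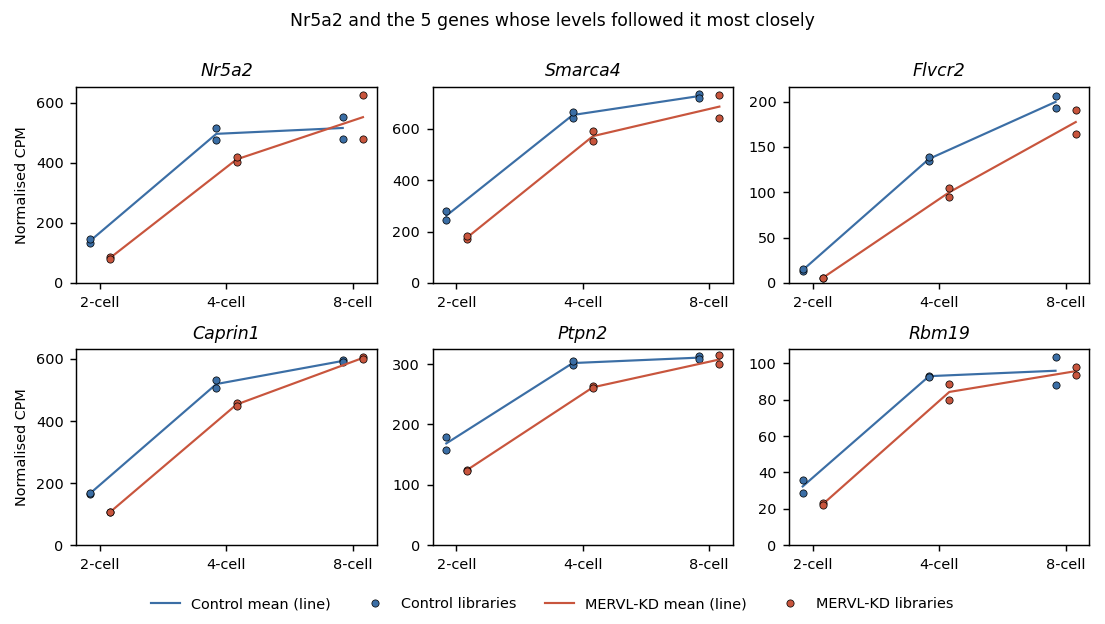
Normalised CPM of Nr5a2 and of the 5 genes with the highest Pearson r to it over 12 libraries, at the 3 stages; points are libraries, lines join group means, blue for control and red for MERVL-KD. All 6 genes are lower in both MERVL-KD libraries than in both control libraries both in 2-cell and in 4-cell embryos, which the choice by r over the same libraries favours.

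Esrrb (chr12:86361117-86521628, plus strand) rose between stages, and after MERVL-KD it passed as lower in 8-cell embryos alone. Its control libraries held 26.8 and 33.4 CPM in 2-cell, 108.2 and 112.6 in 4-cell and 151.7 and 154.8 in 8-cell embryos. The MERVL-KD libraries held 30.6 and 20.3, then 116.1 and 128.1, then 112.5 and 120.5. The groups overlapped at the 2-cell stage and were apart at both later stages, with both MERVL-KD libraries higher in 4-cell and lower in 8-cell embryos. The fold changes of MERVL-KD were -0.15 ± 0.18 (adjusted p = 0.654, and 0.14 when scaled by library size alone), 0.15 ± 0.10 (adjusted p = 0.39) and -0.39 ± 0.09, the last with an adjusted p of 0.0321. That call was lost without control 8-cell replicate 1 (adjusted p = 0.122) or replicate 2 (0.145), with library size alone as the scaling (0.133) and with all 12 libraries in the fit (0.145), with values of -0.40, -0.37, -0.26 and -0.40. Esrrb rose in control embryos from 2-cell to 4-cell by 1.87 ± 0.15 (adjusted p = 2.29e-09), and its 4-cell to 8-cell step of 0.47 ± 0.15 had an adjusted p of 0.0603.

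Rarg (chr15:102234938-102257517, minus strand) was at 51.6 and 61.2 CPM in control and 53.0 and 55.1 in MERVL-KD 2-cell libraries, at 153.4 and 163.2 against 144.6 and 156.9 at the 4-cell stage, and at 213.5 and 198.9 against 173.6 and 159.3 at the 8-cell stage. The groups overlapped at the first pair of stages and were apart at the 8-cell stage, with MERVL-KD lower. The MERVL-KD fold changes were 0.02 ± 0.11, -0.06 ± 0.10 and -0.30 ± 0.09, and none passed (adjusted p = 0.927, 0.755 and 0.0839). Rarg rose in control embryos from 2-cell to 4-cell by 1.49 ± 0.11 (adjusted p = 1.18e-10) and from 4-cell to 8-cell by 0.38 ± 0.11 (adjusted p = 0.034). The second call was lost without any 1 of the 4 control libraries of these stages (adjusted p = 0.086 to 0.25) and with library size alone as the scaling (0.18, adjusted p = 0.342).

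The 3 subunit genes of NF-Y moved apart between stages. Nfya (chr17:48386885-48409906, minus strand), the subunit that reads the CCAAT box, held 111.2 and 123.0 CPM in control 2-cell libraries and fell to 60.0 and 62.3 at the 4-cell stage, a log2 fold change of -0.94 ± 0.11 (adjusted p = 1.57e-07). It stood at 79.1 and 72.8 CPM at the 8-cell stage, a step of 0.31 ± 0.11 (adjusted p = 0.0915). Nfyb (chr10:82748701-82764144, minus strand) rose from 74.7 and 84.7 to 203.2 and 214.5 CPM, by 1.39 ± 0.11 (adjusted p = 2.33e-10), and was at 188.2 and 183.6 at the 8-cell stage. Nfyc (chr4:120757438-120831572, minus strand) rose from 150.9 and 166.8 to 195.9 and 257.0 CPM, by 0.51 ± 0.12 (adjusted p = 0.000708), a call lost without control 4-cell replicate 2 (0.29, adjusted p = 0.0784), and was at 230.7 and 245.2 at the 8-cell stage. The 2-cell and 4-cell libraries did not overlap for any of the 3 genes.

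Counted per kilobase of exon, and as shares of the summed level of the 3 genes, Nfya made up 18.7% and 18.6% in control 2-cell libraries, 7.14% and 6.17% at the 4-cell stage and 8.56% and 7.69% at the 8-cell stage. Nfyb made up 18.2% and 18.5%, then 34.9% and 30.6%, then 29.4% and 28.0%. Nfyc stayed between 58.0% and 64.3% in the 6 control libraries. These shares are ratios within a library and do not depend on the scaling between libraries. In MERVL-KD 2-cell libraries the share of Nfyb was 23.9% and 22.7%, above both control libraries, and that of Nfyc was 57.5% and 60.1%, below both. That of Nfya was 18.6% and 17.2%, below both control libraries by a margin under the spread between libraries. In 4-cell embryos the shares of all 3 overlapped between MERVL-KD and control. In 8-cell embryos the share of Nfya was 6.95% and 5.96%, below both control libraries, and that of Nfyc 65.8% and 64.4%, above both (62.1% and 64.3%), while that of Nfyb overlapped. These shares were not tested.

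**Figure D5:**
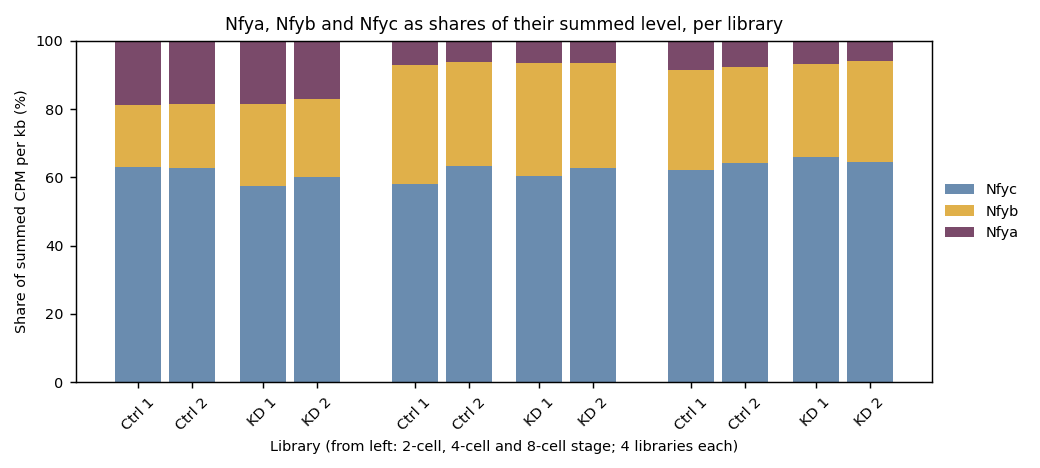
Share of Nfya, Nfyb and Nfyc in their summed CPM per kilobase of exon (y axis, %), 1 bar for each of the 12 libraries (Ctrl, control; KD, MERVL-KD). The Nfya share is 17.2% to 18.7% in the 4 libraries of the 2-cell stage and 5.96% to 8.56% in the 8 later ones.

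After MERVL-KD, Nfya was at 89.0 and 89.1 CPM in 2-cell, 52.3 and 52.2 in 4-cell and 59.4 and 54.8 in 8-cell embryos, below both control libraries each time. The fold changes were -0.31 ± 0.09 (adjusted p = 0.034), -0.22 ± 0.11 (adjusted p = 0.258) and -0.40 ± 0.11 (adjusted p = 0.0585, but 0.0242 with DESeq2), and the mean over the 3 stages was -0.34 ± 0.06 (adjusted p = 0.000404). Nfyc in MERVL-KD libraries was at 110.6 and 125.5, then 191.2 and 201.1, then 226.0 and 237.9 CPM. Only at the 2-cell stage were its groups apart, with a fold change of -0.34 ± 0.09 (adjusted p = 0.0222), followed by -0.20 ± 0.12 (adjusted p = 0.338) and -0.03 ± 0.08 (adjusted p = 0.91, and 0.10 when scaled by library size alone). The 2-cell calls of both genes were lost without control replicate 2 (adjusted p = 0.201 for Nfya and 0.112 for Nfyc) and without MERVL-KD replicate 1 (0.0657 and 0.127), and that of Nfya also without MERVL-KD replicate 2 (0.0626). Nfyb in MERVL-KD libraries was at 79.2 and 81.6, then 180.0 and 169.6, then 161.0 and 188.8 CPM, with fold changes of 0.10 ± 0.10 (adjusted p = 0.595), -0.25 ± 0.09 (adjusted p = 0.111) and -0.08 ± 0.10 (adjusted p = 0.731, and 0.04 when scaled by library size alone), of which none passed.

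Scaling matters for the smaller differences at the 2-cell stage. With library size alone in place of TMM, the median of all features tested moved from 0.02 to 0.31 on the log2 scale, and the share of lower calls among all calls from 51.8% to 13.3%. On that scale Nr5a2 was still lower, at -0.37 (adjusted p = 0.0104), whereas Nfya was at -0.02, Nfyc at -0.06 and Ctcf at -0.03, none of which passed, and Rarg (0.31), Nfyb (0.39), Myc (0.78) and Sp1 (0.38) passed as higher. Relative to the median of all features Nr5a2, Nfya, Nfyc and Ctcf lay at -0.67, -0.33, -0.36 and -0.34, and those other 4 genes between 0.01 and 0.47. At the 8-cell stage the median moved from 0.01 to 0.14, and the share of lower calls from 68.4% to 37.5%. The share of lower calls moved from 54.4% to 42.8% in 4-cell embryos, from 60.8% to 21.4% in the mean over stages, from 49.2% to 87% in the control step from 4-cell to 8-cell (median of all features from -0.03 to -0.23, and a share of 37.6% with DESeq2 size factors) and from 51.9% to 82.2% in the same step of MERVL-KD embryos. The share of calls below 0 moved from 40.1% to 85.7% in the difference of the first steps, from 52.8% to 37.5% in that of the second steps and from 41.1% to 77.6% in the difference of the MERVL-KD effect between 8-cell and 2-cell embryos, in which Nr5a2 still passed at 0.59 (adjusted p = 0.0203).

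Ctcf (chr8:105636568-105682922, plus strand) was lower in MERVL-KD embryos at each stage with TMM scaling. The control libraries held 242.2 and 252.0 CPM in 2-cell, 186.8 and 209.9 in 4-cell and 177.4 and 187.6 in 8-cell embryos. The MERVL-KD libraries held 190.2 and 184.2, then 132.5 and 161.5, then 157.3 and 170.2, and the groups did not overlap at any stage. The fold changes were -0.32 ± 0.08 (adjusted p = 0.0181), -0.43 ± 0.11 (adjusted p = 0.0327) and -0.15 ± 0.09, the last of which did not pass (adjusted p = 0.408). The 2-cell call was lost without control replicate 2 (adjusted p = 0.0666), and the 4-cell call without control replicate 2 (0.207), without MERVL-KD replicate 1 (0.0922) and with library size alone as the scaling (0.0535). With library size alone as the scaling, the fold change was -0.03 in 2-cell (adjusted p = 0.847) and -0.02 in 8-cell embryos (adjusted p = 0.929). Averaged over stages with TMM scaling, it was -0.33 ± 0.06 (adjusted p = 0.000515). In control embryos Ctcf fell by 0.32 ± 0.10 on the log2 scale from 2-cell to 4-cell (adjusted p = 0.0142), a call lost without control 2-cell replicate 2 (0.0795), 4-cell replicate 1 (0.163) or either control 8-cell library (0.0551 and 0.0541) and with library size alone (0.216), and in MERVL-KD embryos it fell by 0.35 ± 0.11 (adjusted p = 0.0079), a call lost without MERVL-KD 2-cell replicate 1 (0.0711) or 4-cell replicate 1 (0.167). Exons of the antisense genes Agrp and Gm5914 overlap those of Ctcf by 114 and 370 bases, and whether counting used the strand is not given in the sources used here, but these genes averaged 97.33 and 2.67 counts a library against 6402 for Ctcf.

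Gabpa (chr16:84834925-84863779, plus strand) was the only member to pass as higher after MERVL-KD in a fit of its stage with TMM scaling. It was at 257.0 and 308.3 CPM in control and 276.2 and 227.7 in MERVL-KD 2-cell libraries, which overlapped. At the 4-cell stage it was at 330.1 and 365.8 against 420.0 and 452.4, and at the 8-cell stage at 385.0 and 413.5 against 464.0 and 449.0, with both MERVL-KD libraries above both control libraries. The fold changes were -0.08 ± 0.11 (adjusted p = 0.696, and 0.21 when scaled by library size alone), 0.33 ± 0.09 (adjusted p = 0.0389) and 0.20 ± 0.08 (adjusted p = 0.181). With library size alone the 8-cell value was 0.33 and passed (adjusted p = 0.0449). The 4-cell call was lost without either control replicate (adjusted p = 0.34 and 0.0809), without MERVL-KD replicate 2 (0.0752) and with all 12 libraries in the fit (0.0601). Gabpa rose from 2-cell to 4-cell by 0.30 ± 0.11 in control embryos (adjusted p = 0.0232) and by 0.79 ± 0.11 in MERVL-KD embryos (adjusted p = 2.03e-06). The control step did not pass without control 2-cell replicate 1 (0.348) or 4-cell replicate 2 (0.228). The DESeq2 call for the difference of these steps, given above, was Gabpa. Exons of the antisense gene Atp5j overlap 6.98% of the Gabpa exons, and Atp5j averaged 2624 counts a library against 12370 for Gabpa.

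Sp1 (chr15:102406143-102436404, plus strand) was the only member that did not pass in the step from 2-cell to 4-cell. Control libraries held 165.1 and 170.1, then 157.4 and 193.9, then 278.7 and 288.4 CPM. The rise came in the step from 4-cell to 8-cell, by 0.69 ± 0.12 (adjusted p = 0.00163), 1.61-fold, and it passed in every setting and without each library in turn. In MERVL-KD libraries Sp1 was at 178.6 and 159.0, then 200.1 and 188.9, then 209.8 and 268.4 CPM. The 4-cell and 8-cell libraries did not overlap in either condition. The MERVL-KD fold changes were 0.09 ± 0.09, 0.15 ± 0.11 and -0.24 ± 0.11, and none passed (adjusted p = 0.565, 0.439 and 0.255). MERVL-KD 8-cell replicate 1 is the lower of its pair. Without replicate 2 the 8-cell fold change was -0.43, in a fit with 1 MERVL-KD library.

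Myc (chr15:61985391-61990374, plus strand) had the lowest CPM of the 10 genes in each of the 6 groups. Control libraries held 5.42 and 9.74 CPM at the 2-cell stage, from 170 and 354 counts, and 31.5 and 32.9, then 34.8 and 32.6 CPM at the later stages. MERVL-KD libraries held 11.8 and 8.17, then 55.6 and 36.5, then 29.5 and 27.6 CPM. Those of the 2-cell stage overlapped, those of the 4-cell stage were above and those of the 8-cell stage below both control libraries. The fold changes were 0.49 ± 0.26, 0.52 ± 0.18 and -0.23 ± 0.14, and none passed (adjusted p = 0.257, 0.0953 and 0.392). At the 4-cell stage DESeq2 gave 0.52 (adjusted p = 0.0486), and without MERVL-KD replicate 2 the edgeR value was 0.80. At the 2-cell stage the value was 0.95 without control replicate 2 and 0.72 without MERVL-KD replicate 2. Each fit without a library leaves 1 library in a group, whose spread it cannot measure. Myc rose from 2-cell to 4-cell by 2.08 ± 0.25 in control embryos (adjusted p = 2.1e-06), 4.23-fold, and by 2.20 ± 0.25 in MERVL-KD embryos (adjusted p = 9.2e-07), and the former was the largest fold of the control step among the 10 genes.

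Per kilobase of exon, the order of the levels changed with the stage. In control 2-cell libraries Nfyc led with 54.0 ± 3.82 CPM per kb (SD, n = 2), followed by Ctcf (50.8 ± 1.43) and Gabpa (49.7 ± 6.38), and these 3 overlapped. Nr5a2 came next at 23.7 ± 1.63, ahead of Sp1 (20.3 ± 0.431), Nfya (16.01 ± 1.13), Nfyb (15.7 ± 1.39), Rarg (13.2 ± 1.59), Esrrb (4.98 ± 0.772) and Myc (2.79 ± 1.13), with Nfya and Nfyb overlapping. In control 4-cell libraries Nr5a2 was first at 84.3 ± 4.55, overlapping with Nfyc at 77.0 ± 14.7, and Nfya was last at 8.36 ± 0.227. In control 8-cell libraries Nr5a2 (87.6 ± 9.00) and Nfyc (80.9 ± 3.48) again overlapped at the top and Nfya was last at 10.4 ± 0.608. In MERVL-KD libraries Nr5a2 stood below Sp1 and Nfyb in 2-cell embryos (14.2 ± 1.07), below Gabpa (76.7 ± 4.03) alone in 4-cell embryos (69.8 ± 1.95), and at the top in 8-cell embryos (93.7 ± 17.5), where it overlapped with Gabpa (80.3 ± 1.86).

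Genes that act with these factors are described by lists, whose medians stand beside the medians of all features given above. Their counts are to be read against the shares of all features called higher and lower, which were 6.74% and 7.23% in 2-cell, 4.83% and 5.75% in 4-cell and 1.62% and 3.51% in 8-cell embryos and 26.6% and 28.1% in the control step from 2-cell to 4-cell. Of 46 other nuclear receptors, 33 were tested at the 2-cell stage, and 3 were higher and 2 lower after MERVL-KD, with a median log2 fold change of 0.12. With library size alone 6 were higher and 1 lower. Nr1d2, a haem-binding repressor of the circadian clock, fell from 26.7 to 8.20 CPM (fold change -1.62 ± 0.17, adjusted p = 8.5e-06), and Nr2c2, the testicular receptor 4, rose from 82.7 to 109.0 (0.48 ± 0.09, adjusted p = 0.00232). Nr1d2 was also lower at the 4-cell stage (-0.72 ± 0.12, adjusted p = 0.00311), and its relative Nr1d1 in 4-cell (-0.83 ± 0.20, adjusted p = 0.0236) and 8-cell embryos (-1.12 ± 0.19, adjusted p = 0.00699), where it was the only one of 30 to pass, against 2 higher and 1 lower with library size alone. Rxra, a dimer partner of RARG, was higher in 4-cell embryos (0.55 ± 0.11, adjusted p = 0.00868), one of 3 higher and 2 lower among 36, as was Nr4a2 (1.14 ± 0.23, adjusted p = 0.00837, but 0.0703 in the 12-library fit). Without control 4-cell replicate 2 neither Nr1d1 (adjusted p = 0.0959) nor Rxra (0.115) passed there, nor did Nr1d1 without MERVL-KD replicate 1 (0.0723). In control embryos 11 of 40 were higher and 14 lower at the 4-cell than at the 2-cell stage (26.6% and 28.1% of all features). Esrrg, a close relative of Esrrb, fell from 65.2 to 3.12 CPM (-4.39 ± 0.24, adjusted p = 3.19e-12) and Esrra rose from 3.43 to 17.1 CPM (2.32 ± 0.19, adjusted p = 1.27e-09), while Esrrb rose as given above.

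Coregulators of nuclear receptors were mostly lower where they passed. Of 18 tested in 2-cell embryos, 0 were higher and 4 lower after MERVL-KD (median -0.08), but with library size alone 6 were higher and 3 lower. The ligand-dependent corepressor Lcor fell from 473.5 to 269.2 CPM (-0.73 ± 0.09, adjusted p = 3.05e-05) and the coactivator Ncoa6 from 581.6 to 306.9 (-0.84 ± 0.10, adjusted p = 3.68e-05). Among 4-cell embryos 1 was higher and 5 lower, led by Lcor (-1.40 ± 0.10, adjusted p = 5.47e-06) and Ncor1 (-0.59 ± 0.10, adjusted p = 0.00254), and among 8-cell embryos 0 were higher and 2 lower, Lcor (-0.69 ± 0.09, adjusted p = 0.0012) and Ncoa3 (-0.39 ± 0.08, adjusted p = 0.0178, but 0.124 without control replicate 1). With library size alone 1 was higher and 4 lower in 4-cell embryos, and 0 were higher and 1 lower in 8-cell embryos. From 2-cell to 4-cell in control embryos 3 of 19 were higher and 10 lower (26.6% and 28.1% of all features), among them the p160 coactivators Ncoa2 (-3.05 ± 0.12, adjusted p = 1.11e-14) and Ncoa1 (-2.64 ± 0.14, adjusted p = 5.53e-13). Of 15 genes of retinoic acid synthesis, transport and clearance, edgeR called 0 of the 11, 8 and 9 tested at the 3 stages after MERVL-KD, with 1, 1 and 0 at an unadjusted p under 0.05 and 0 by DESeq2 at each, although 2 were called higher in 2-cell embryos with library size alone. In the control step from 2-cell to 4-cell 1 of 13 was higher, the synthesising enzyme Aldh1a3 (2.94 ± 0.31, adjusted p = 4.64e-08), and 6 were lower, led by Rdh11 (-3.73 ± 0.30, adjusted p = 6.28e-10).

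The 16 genes that have been linked to NR5A2 or ESRRB, which share Nr0b1 and Nr0b2 with the list of receptors, had 1 higher and 0 lower of 13 tested in 2-cell embryos after MERVL-KD (median -0.05), and with library size alone 4 were higher and 0 lower. The gene was Star, which moves cholesterol into mitochondria, from 2.01 to 4.18 CPM (1.14 ± 0.30, adjusted p = 0.0169), a call lost without control replicate 1 (0.0867) or MERVL-KD replicate 1 (0.0557). In 4-cell embryos Klf4 (0.43 ± 0.11, adjusted p = 0.0307) and Tfcp2l1 (0.56 ± 0.15, adjusted p = 0.0321), both pluripotency factors, were higher and the cyclin gene Ccne1 was lower (-0.32 ± 0.09, adjusted p = 0.0485), and without control replicate 2 none of these 3 passed (0.382, 0.185 and 0.338). In 8-cell embryos 0 of 12 were higher and 3 lower (median -0.14), and 1 higher and 2 lower with library size alone. Pou5f1, which encodes OCT4, fell from 232.5 to 144.0 CPM (-0.68 ± 0.09, adjusted p = 0.00116) and Klf2 from 197.5 to 142.1 (-0.47 ± 0.09, adjusted p = 0.0103, but 0.0556 without control replicate 2). In control embryos 7 of 14 rose and 2 fell from 2-cell to 4-cell (26.6% and 28.1% of all features), led by Sox2 downward (-4.27 ± 0.67, adjusted p = 1.65e-05), and upward by Klf2 from 7.46 to 145.1 CPM (4.28 ± 0.17, adjusted p = 5.31e-14) and Klf5 from 69.9 to 376.6 (2.43 ± 0.11, adjusted p = 1.17e-13).

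Cell cycle genes whose promoters are known for CCAAT boxes were mostly lower in 2-cell embryos. Of 14 tested, 10 were lower and 0 higher after MERVL-KD (median -0.39), and 3 were lower and 1 higher with library size alone, where the median was -0.11 against 0.31 over all features. The phosphatase Cdc25c, which starts mitosis, fell from 117.1 to 62.4 CPM (-0.82 ± 0.10, adjusted p = 4.92e-05) and the mitotic kinase Aurka from 120.4 to 72.2 (-0.65 ± 0.10, adjusted p = 0.000302). Of the same 14 in 4-cell embryos, 2 were lower, Cdk1 (-0.66 ± 0.10, adjusted p = 0.00183) and Aurka (-0.39 ± 0.09, adjusted p = 0.0204, but 0.103 and 0.131 without either control replicate), and in 8-cell embryos 4, led by Cdk1 (-0.66 ± 0.09, adjusted p = 0.00154) and Ccnb1 (-0.48 ± 0.07, adjusted p = 0.00351), with 0 higher at either stage. With library size alone 2 were lower and 0 higher at each of these stages. In control embryos 7 of these 14 genes rose and 3 fell from 2-cell to 4-cell (26.6% and 28.1% of all features). Cdc20 (0.98 ± 0.10, adjusted p = 2.19e-08) and Aurka (0.89 ± 0.10, adjusted p = 6.27e-08) rose, and E2f1 (-2.20 ± 0.13, adjusted p = 2.95e-12) and Cdc25c (-1.25 ± 0.13, adjusted p = 5.12e-08) fell.

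Among 18 cohesin and insulator genes, which act with CTCF, the cohesin subunit Rad21 and the acetyltransferase Esco2 led the falls in 2-cell embryos. Of the 18, 2 were higher and 5 lower after MERVL-KD (median -0.17), and 4 higher and 4 lower with library size alone. Rad21, the kleisin that closes the cohesin ring, fell from 585.3 to 262.9 CPM (-1.07 ± 0.08, adjusted p = 1.9e-07) and Esco2 from 279.6 to 74.5 (-1.83 ± 0.09, adjusted p = 1.18e-09), whereas Maz, a zinc finger protein, rose from 2.43 to 7.62 (1.73 ± 0.29, adjusted p = 0.000686) and the core subunit Smc3 from 128.2 to 166.7 (0.46 ± 0.11, adjusted p = 0.00879), a call lost without control replicate 1 (0.0535) or MERVL-KD replicate 1 (0.0613). In 4-cell embryos 0 of 17 were higher and 3 lower, led by Rad21 (-1.22 ± 0.10, adjusted p = 1.12e-05), and in 8-cell embryos 2 were higher, Stag1 (0.51 ± 0.10, adjusted p = 0.0163) and Pds5a (0.36 ± 0.08, adjusted p = 0.0239), and 1 lower, Rad21 (-0.39 ± 0.07, adjusted p = 0.0124). With library size alone 0 were higher and 1 lower in 4-cell embryos, and 3 higher and 1 lower in 8-cell embryos. Without control 8-cell replicate 1 Rad21 (0.0985) and Pds5a (0.199) did not pass, and without replicate 2 Pds5a (0.0668) and Stag1 (0.083) did not. In the control step from 2-cell to 4-cell 9 of 18 rose and 7 fell (26.6% and 28.1% of all features), Stag2 by 1.97 ± 0.11 (adjusted p = 1.69e-12) upward and the cohesin release factor Wapl from 1844 to 444.9 CPM (-2.05 ± 0.09, adjusted p = 5.24e-14).

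Among 15 genes of the MYC network 6 were higher and 0 lower in 2-cell embryos after MERVL-KD (median 0.34), and 9 and 0 with library size alone. Mycn, the paralogue of Myc, rose from 1.19 to 9.11 CPM (3.02 ± 0.27, adjusted p = 1.71e-06) and Mlxip, a partner of MLX, from 125.6 to 171.4 (0.53 ± 0.09, adjusted p = 0.000775). Mycn was also higher in 4-cell embryos (1.50 ± 0.36, adjusted p = 0.0214, but 0.0973 without MERVL-KD replicate 2), where 2 were higher and 1 lower. In 8-cell embryos 0 were higher and 2 lower, Mycl (-1.13 ± 0.27, adjusted p = 0.0352) and Zbtb17 (-0.35 ± 0.09, adjusted p = 0.0446), neither of which passed without control replicate 2 (0.223 and 0.211), nor Zbtb17 without replicate 1 (0.166). With library size alone 0 genes of this network were higher and 0 lower in 8-cell embryos. Max, which encodes the dimer partner of MYC, fell in the control step from 2-cell to 4-cell from 134.7 to 31.6 CPM (-2.09 ± 0.14, adjusted p = 3.33e-11), while Myc rose. In the same step 7 of the 15 rose and 6 fell (26.6% and 28.1% of all features).

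Of 26 ETS factors and GABP partners, 22 were tested in 2-cell and in 4-cell embryos, and each time 2 were higher and 3 lower, but 8 and 1 with library size alone in 2-cell embryos. Elf3, an ETS factor of epithelia, was higher at both stages (1.05 ± 0.15, adjusted p = 0.000148, but 0.0716 in the 12-library fit, and 2.31 ± 0.32, adjusted p = 0.000858). Etv6, an ETS repressor, fell from 20.5 to 6.68 CPM in 2-cell embryos (-1.54 ± 0.18, adjusted p = 2.42e-05), and Spic, known from macrophages, was lower in 4-cell (-0.61 ± 0.10, adjusted p = 0.0031) and 8-cell embryos (-0.94 ± 0.09, adjusted p = 4.9e-05), where 1 of 21 was higher, Elf1 (0.77 ± 0.16, adjusted p = 0.018), and 1 lower. Of the 8 other SP genes, 1 was higher in 2-cell embryos after MERVL-KD, Sp5 from 0.546 to 2.20 CPM (2.09 ± 0.44, adjusted p = 0.00418, but 0.244 in the 12-library fit), and 4 with library size alone. At either later stage edgeR called 0 of 6, with 1 at an unadjusted p under 0.05 and 0 by DESeq2. In control embryos 3 of the 8 fell from 2-cell to 4-cell (28.1% of all features) and 0 rose (26.6%).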

How the data were processed

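Total RNA from pools of embryos was made into stranded libraries and sequenced. According to the submitters' processing notes and the study's methods, the authors used bcl2fastq 2.20.0, STAR 2.5.3a and featureCounts, and deposited read counts per gene and per repeat type. The strand and pair settings of the counting are not given in the sources used here. Between 71.7% and 74.5% of the deposited count values from 1 to 50 were even, as when both mates of a pair are counted. Counts were tested as deposited with the quasi-likelihood test of edgeR 4.0.16 (R 4.3.3), after its filter on low counts and TMM scaling, with Benjamini-Hochberg adjustment over all features and a threshold of 0.05. Each MERVL-KD comparison was fitted on the 4 libraries of its stage, and steps, their differences and the mean over stages on all 12. Two-sided p-values set a difference against the spread between pools, with 2 pools a group. That spread was estimated from all libraries of a fit and drawn towards that of other features. Alternatives were DESeq2 1.42.0, other scalings and filters, halved counts, other sets of libraries, a replicate block and leaving out each library. With a library left out its group holds 1 library, whose spread is not measured. Calls lost or gained in such fits carry that limit.

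The members and gene lists were chosen with earlier results of these data known. Named are every member, at most 2 genes per list and direction, taken from those with the smallest p, and the 5 genes with the highest Pearson r to Nr5a2. Same-numbered replicates did not deviate together (r = -0.0132, -0.0007 and 0.0074 at the 3 stages). Replicates differed by more than counting noise (chi-square per degree of freedom 14.71 to 25.78). Promoters were matched to RefSeq (GRCm38.p6) by symbol.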

Additional observations from a re-analysis of the deposited data

Results flagged for a closer look

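The MERVL-KD effect on Nr5a2 differed between stages. The difference between the 8-cell and the 2-cell effect was 0.837 on the log2 scale (SE 0.16, adjusted p = 0.00444, edgeR), in the fit of all 12 libraries; in fits of a stage alone the fold change was -0.65 in 2-cell and 0.11 in 8-cell embryos. It was tested as an interaction term, which was added after the values were seen. No other member passed this test, in which 3.98% of all features did. It lay at 0.538 without MERVL-KD 8-cell replicate 2, the library with the highest Nr5a2 level, and at 1.02 without MERVL-KD 8-cell replicate 1. The part of the delay of MERVL-KD embryos, and of the sorting by stage, in this difference was not tested.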

How the results depend on the processing

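Recomputed were all members' fold changes after MERVL-KD at each stage and in the control steps, and only some members' in the other comparisons. Among these, 548 values under other settings kept their direction and call, 18 lost and 21 gained a call and 9 changed sign; with a library left out these counts were 506, 33, 12 and 13, and no value that changed sign belonged to a call. For the other named genes the counts were 1060, 38, 4 and 1, and with a library left out 766, 68, 1 and 1. At least 2-fold, 0 members passed after MERVL-KD at any stage, in the mean, in both steps from 4-cell to 8-cell and in the 8-cell against 2-cell difference, and 5 in each step from 2-cell to 4-cell. Scaling by library size alone also changed which members passed. In 2-cell embryos Nr5a2 was lower and Rarg, Nfyb, Myc and Sp1 were higher, and in 8-cell embryos Gabpa alone passed, higher. In the control step from 4-cell to 8-cell Sp1 was higher and Nfyb and Ctcf were lower. With library size alone 1 member passed in 4-cell embryos, 2 in the mean, 0 in the MERVL-KD step from 4-cell to 8-cell and 1 in the first difference of steps, and on that scale Esrrb (0.139) and Gabpa (0.21) in 2-cell embryos, Nfyb (0.0448), Nfyc (0.0979) and Smarca4 (0.0493) in 8-cell embryos, and Nr5a2 (-0.15), Gabpa (-0.00537), Nfyc (-0.133) and Myc (-0.14) in the control step from 4-cell to 8-cell changed sign. Outside these counts, Esrrb, Rarg, Nfyb and Sp1 in the mean, Gabpa, Nfya and Nfyb in the MERVL-KD step from 4-cell to 8-cell and Nfya, Nfyc, Myc and Sp1 in the first difference of steps changed sign too, none of them a call. In a fit of another set of libraries 1 passed in 4-cell embryos and 0 in the MERVL-KD step from 4-cell to 8-cell, and Rarg in 2-cell embryos was at -0.0614. With a filter of at least 1 count, 2 passed in 8-cell embryos and 2 in the MERVL-KD step from 4-cell to 8-cell. DESeq2 called 2 in 8-cell embryos, 4 in the control and 2 in the MERVL-KD step from 4-cell to 8-cell and 1 in the first difference of steps, and its size factors 4 in that control step. With the replicate block 2 passed in 8-cell embryos, and Nfya in 2-cell embryos did not (adjusted p = 0.0663); the replicates share only a number. The causes were not tested.

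Leaving out each library in turn, the count of members passing ran from 2 to 4 in 2-cell, 0 to 2 in 4-cell and 0 to 4 in 8-cell embryos, 3 to 5 in the mean, 7 to 9 and 8 to 9 in the control and MERVL-KD steps from 2-cell to 4-cell, 1 to 3 and 0 to 2 in those from 4-cell to 8-cell, 0 to 2 and 0 to 0 in the differences of steps, and 1 to 1 in the 8-cell against 2-cell difference. Fold changes that changed sign ran in 2-cell embryos from -0.5 to 0.103 for Esrrb, -0.0982 to 0.127 for Rarg, -0.242 to 0.0445 for Gabpa and -0.00728 to 0.169 for Sp1. In 8-cell embryos they ran from -0.1 to 0.282 for Nr5a2, -0.2 to 0.0275 for Nfyb, -0.0665 to 0.0182 for Nfyc and -0.173 to 0.0115 for Smarca4, in the control step from 2-cell to 4-cell from -0.102 to 0.204 for Sp1, and in that from 4-cell to 8-cell from -0.0313 to 0.15 for Nr5a2 and -0.111 to 0.284 for Nfyc.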
